A study of Mus musculus with 8 samples.

Results

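Translation initiation factors are the proteins that load the small ribosomal subunit onto an mRNA and place it at the start codon. Their genes were taken from the array annotation as the probe sets with exactly 1 gene symbol beginning with Eif1 to Eif6, leaving out the eIF2 kinases (Eif2ak) and the Eif2s3 genes, and each gene was represented by whichever of its probe sets was brightest on average. This gave 41 genes among 18193 with such a probe set, and the choice used no difference between groups. Of the 41, 39 passed a filter on low signal and were tested among 14423 genes. Eif4a3, at 1.95 to 3.03, lay under the limit of 3.60 (normalised log2 signal) in all 8 arrays, and Eif5a2, at 2.00 to 3.81, passed it in 1.

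Liver RNA of male C57BL/6 mice aged 7 to 10 weeks was hybridised to 8 Affymetrix arrays. The groups were Tob1 null at 24 h after partial hepatectomy, Tob1 null at 0 h without surgery, wild type at 24 h after partial hepatectomy and wild type at 0 h, with 2 arrays each. RNA from 3 mice was pooled for each array and no mouse was used again, so errors are those between pools. No group was sham-operated, so the operation and the loss of liver tissue cannot be told apart. Tob1 is an antiproliferative protein that binds the CCR4-NOT deadenylase, and the study asked how the liver's response to hepatectomy differs without it. The brighter of the 2 Tob1 probe sets was not lower in the arrays labelled null, with 10.66 and 10.58 in null-labelled against 9.87 and 10.20 in wild type liver at 24 h, and 11.10 and 11.03 against 10.46 and 10.53 at 0 h. The other, near the filter limit, was lower in null-labelled liver by 1.30 at 24 h and 1.25 at 0 h without passing (adjusted p = 0.54 and 0.595). Its position relative to the deletion is not known here, so the group is called null-labelled and directions between genotypes rest on the labels. All values are normalised log2 signals, differences are log2 values ± SE, and a gene rose or fell only where limma's adjusted p (Benjamini-Hochberg over all 14423 genes) was under 0.05.

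Initiation begins when eIF2, carrying the initiator tRNA and GTP, joins eIF1, eIF1A, eIF3 and eIF5 on the small subunit. The cap-binding protein eIF4E, the helicase eIF4A and the scaffold eIF4G form eIF4F, which recruits the mRNA, and the 4E-BP proteins hold eIF4E back until the kinase mTOR phosphorylates them. eIF2B recharges eIF2 with GTP and is the step that stress kinases block, while eIF6 keeps large subunits free and takes part in their maturation. Hepatocytes enlarge and raise their protein synthesis after hepatectomy before they divide.

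Initiation factor genes were mostly higher 24 h after hepatectomy in both genotypes. In the response averaged over genotypes, 24 h minus 0 h over 4 arrays each, 17 of 39 rose (43.6%, against 13.8% of all genes) and 3 fell (7.69%, against 15.1%); 28.8% of all genes passed in either direction. Their median was 0.27, against -0.04 for all genes, and 34 of 39 were higher (87.2%, against 46.8% of all genes). In null-labelled liver 10 rose and 2 fell (25.6% and 5.13%, against 7.46% and 7.27% of all genes, 14.7% together), with a median of 0.25. In wild type liver 7 passed, each of them higher (17.9%, against 4.18% of all genes that rose, 5.10% that fell and 9.28% together), with a median of 0.32. Eif1ad, Eif2b3, Eif4a1, Eif4e, Eif4e2 and Eif6 rose in both genotypes. The genotypes share no arrays, but each gene's error was estimated from all arrays together, so the calls in the genotypes are not independent. When each genotype was fitted with only its own 2 groups, no initiation factor passed. Of all 39 genes, 23 had all 4 arrays at 24 h above all 4 at 0 h (15.0% of all genes did), and 2, Eif4b and Eif4e3, had all 4 below (16.5%).

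**Figure D1:**
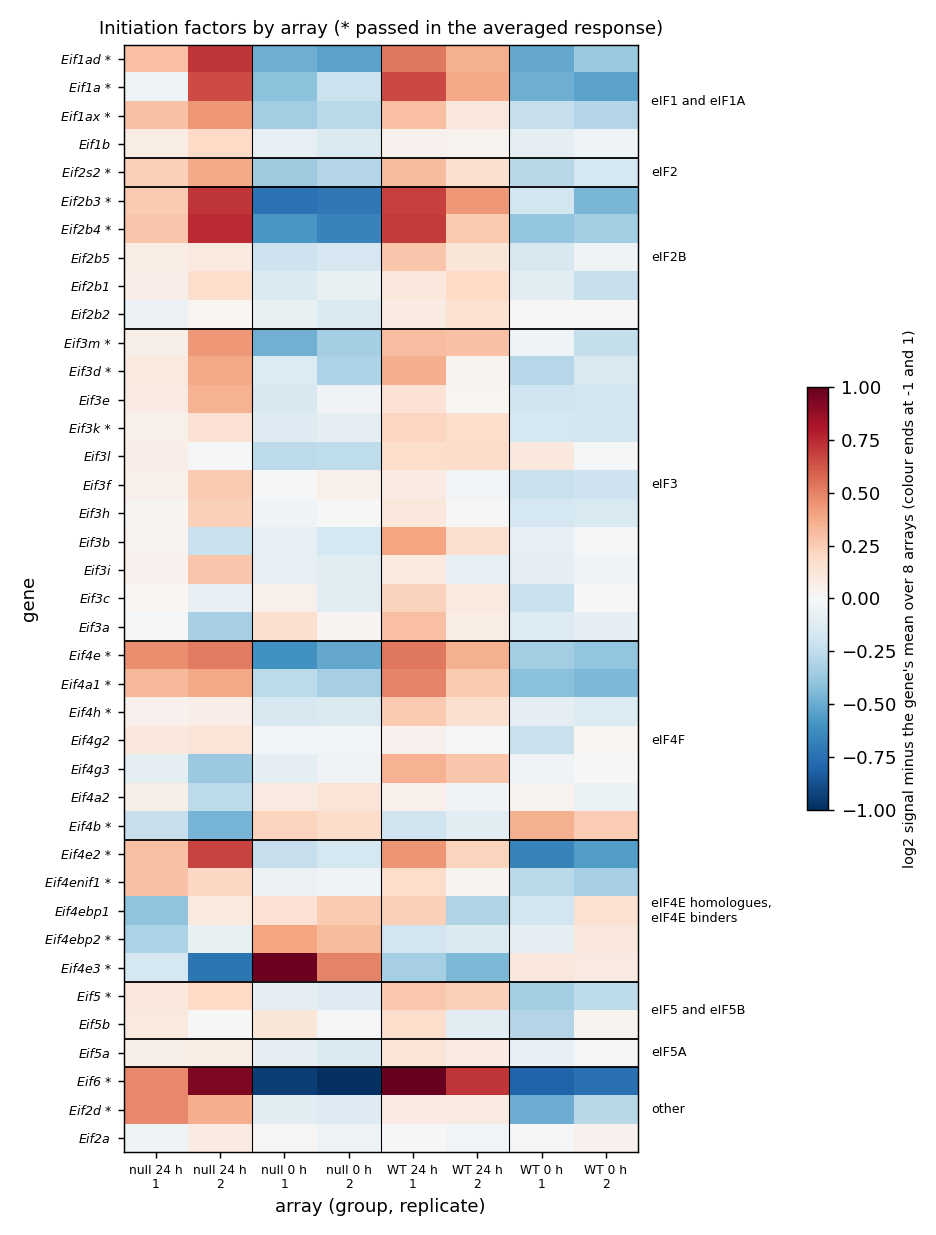
Colours give the log2 signal of each of the 39 tested genes (rows, grouped by role) minus its own mean over the 8 arrays (columns, by group and replicate), and asterisks mark the 20 genes that passed in the averaged response. The arrays at 24 h are mostly red and those at 0 h mostly blue, except in rows such as Eif4b, Eif4e3 and Eif4ebp2, where the colours are the other way round.

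The counts rest on single arrays, in the family as in the whole table. In the averaged response, leaving out null-labelled array 1 or 2 at 0 h gave 10 and 12 genes in place of 20. Leaving out wild type array 1 or 2 at 0 h also gave 10 and 12, and leaving out wild type array 1 at 24 h gave 13. In null-labelled liver the 12 became 1 without array 2 at 24 h, 0 without either of its arrays at 0 h, and 4 without either wild type array at 0 h. In wild type liver the 7 became 3 without array 2 at 24 h and 0 without array 1, without either of its arrays at 0 h or without either null-labelled array at 0 h. In the averaged response, 10 genes passed in each of the 8 fits that leave out 1 array, namely Eif4e, Eif6, Eif4a1, Eif1ad, Eif2b3, Eif4e2, Eif2b4, Eif1ax, Eif2s2 and Eif2d. The arrays at 24 h also differed from one another across the family. Wild type array 1 was above array 2 for 33 of the 39 genes, and null-labelled array 1 was above array 2 for 11, whereas at 0 h array 1 was higher for 19 genes in null-labelled and 14 in wild type liver. Shares over all genes were not counted. The median signal minus each gene's mean was 0.23 and 0.11 for the family in wild type arrays 1 and 2 at 24 h. Over all genes it was -0.009 and -0.008. In the null-labelled arrays it was 0.07 and 0.20 for the family, and -0.01 and 0.02 over all genes.

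Within eIF4F the cap-binding protein and 1 of its helicases rose while the helicase cofactor Eif4b fell. Eif4e, which binds the 5' cap, read 9.68 and 9.74 in null-labelled liver at 24 h against 8.61 and 8.71 at 0 h, and 9.75 and 9.58 in wild type liver at 24 h against 8.87 and 8.83 at 0 h. The 4 arrays at 24 h lay well above the 4 at 0 h, and the genotypes overlapped at 24 h. Its difference was 1.05 ± 0.12 in null-labelled liver (adjusted p = 0.0113, limma), 0.82 ± 0.12 in wild type (adjusted p = 0.0216) and 0.93 ± 0.09 averaged (adjusted p = 0.00303), a 1.91-fold rise and the smallest p of the family. Eif4a1, the main cytosolic helicase, read 11.32 and 11.39 in null-labelled liver at 24 h against 10.74 and 10.67 at 0 h, and 11.50 and 11.26 in wild type liver at 24 h against 10.59 and 10.56 at 0 h. No array at 24 h overlapped one at 0 h, and the averaged rise was 0.73 ± 0.09 (adjusted p = 0.00481, limma). Its paralogue Eif4a2 differed by -0.10 ± 0.10 (adjusted p = 0.516), with 10.85 and 10.53 in null-labelled liver at 24 h against 10.88 and 10.92 at 0 h, and 10.84 and 10.75 in wild type at 24 h against 10.83 and 10.73 at 0 h. The interval of that difference, -0.35 to 0.15 (95%), leaves out a rise as large as the one of Eif4a1.

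Eif4b, an RNA-binding protein that stimulates the eIF4A helicase, fell. It read 8.71 and 8.47 in null-labelled liver at 24 h against 9.16 and 9.12 at 0 h, and 8.73 and 8.83 in wild type liver at 24 h against 9.29 and 9.19 at 0 h. All 4 arrays at 24 h were below all 4 at 0 h, and the averaged difference was -0.51 ± 0.09 (adjusted p = 0.0133, limma). Eif4h, a related stimulator of the helicase, rose by only 0.27 ± 0.08 (adjusted p = 0.0497), with 10.61 and 10.64 in null-labelled liver at 24 h against 10.41 and 10.43 at 0 h, and 10.83 and 10.73 in wild type at 24 h against 10.48 and 10.43 at 0 h. The groups did not overlap in time, but the call ended in each of the 8 fits without 1 array. Of the scaffold genes, Eif4g2, whose product lacks the site for eIF4E, differed by 0.13 ± 0.09 and Eif4g3 by 0.08 ± 0.10, and neither passed with the probe set that stood for the gene. Tested as single probe sets, another one of Eif4g2 rose by 0.34 (adjusted p = 0.0339), so the reading of that gene depends on the probe set. The scaffold gene Eif4g1 was not analysed here.

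The stretches upstream of Eif4e and Eif4a1, the eIF4F genes that rose in both genotypes, are shown because both hold the E-box CACGTG, the sequence bound by Myc with Max and by related factors. They are the 250 bases before the annotated transcript start (RefSeq, GRCm38.p6), at chr3:138527018-138527267 on the plus strand and chr11:69672424-69672673 on the minus strand, written 5' to 3' with the E-box in capitals.
Eif4e: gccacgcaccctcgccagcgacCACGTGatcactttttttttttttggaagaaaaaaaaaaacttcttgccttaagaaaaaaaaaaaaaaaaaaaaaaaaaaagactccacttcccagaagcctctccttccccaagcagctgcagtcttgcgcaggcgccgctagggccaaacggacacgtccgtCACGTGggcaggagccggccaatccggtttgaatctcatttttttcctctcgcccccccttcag
Eif4a1: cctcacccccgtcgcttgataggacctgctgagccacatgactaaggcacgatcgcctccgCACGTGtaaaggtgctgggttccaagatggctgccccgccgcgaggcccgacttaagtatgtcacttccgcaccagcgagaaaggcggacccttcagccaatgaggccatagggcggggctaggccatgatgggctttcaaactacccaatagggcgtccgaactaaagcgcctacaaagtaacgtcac
The motif begins 228 and 64 bases before the start of Eif4e and 189 bases before that of Eif4a1. A second annotated start of Eif4e has no match. It was searched as the letters CACGTG, which read the same on both strands, in windows from 250 bases before to 50 after each start, and 32 of the 41 genes had a window. At least 1 match was found in 9 of these 32 (28.1%), in 11.0% of the 11534 tested genes with a window and in 7.15% of all 32851 windows. Among genes that rose 4 of 14 had a match (Eif4e, Eif4a1, Eif4h and Eif3k), as did 0 of the 2 that fell and 5 of the 16 others. Base composition of the windows was not matched, and a match does not show binding.

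**Figure D2:**
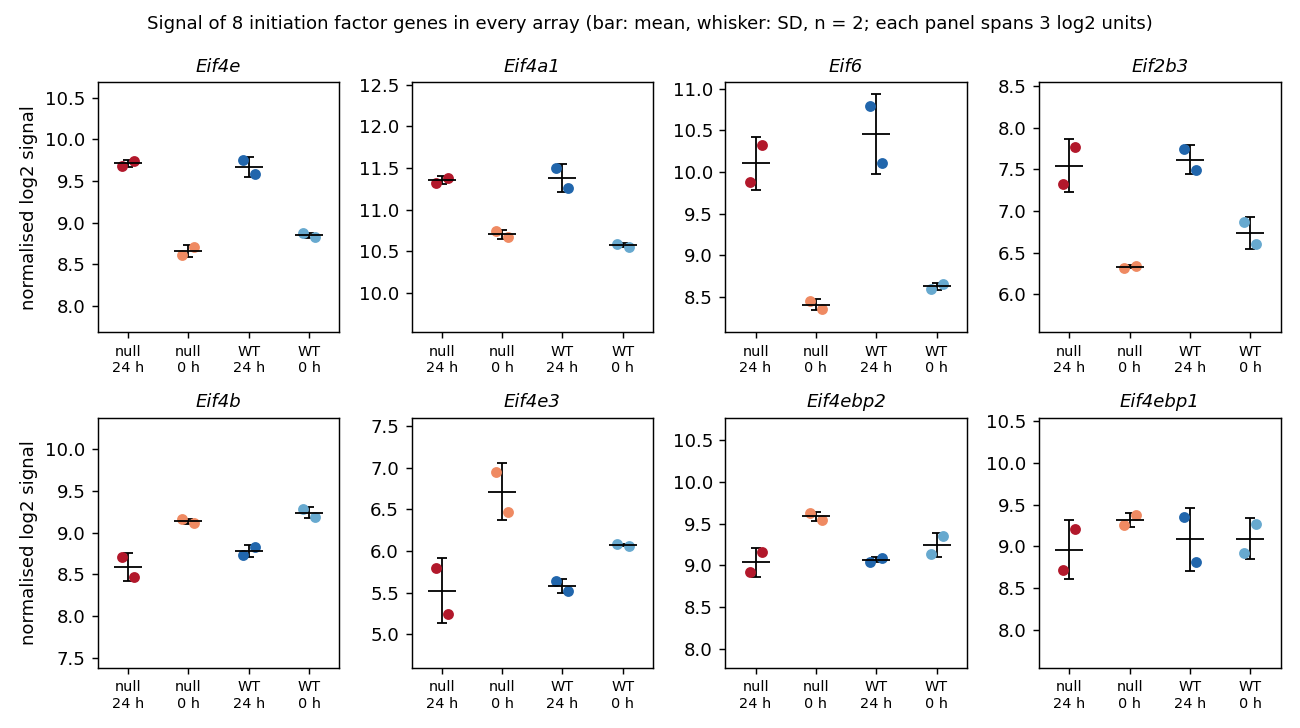
Points are the normalised log2 signal of single arrays for 8 genes in the 4 groups (null 24 h, null 0 h, WT 24 h, WT 0 h), the bar is the mean and the whisker the SD (n = 2), and every panel spans the same range of log2 signal. For Eif4e, Eif4a1, Eif6 and Eif2b3 both groups at 24 h lie above both at 0 h, for Eif4b and Eif4e3 they lie below, and for Eif4ebp1 the arrays of the 2 times overlap across genotypes.

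The mRNAs of proteins that compete for the cap or for eIF4E moved in different directions. Eif4e2, a cap-binding homologue that takes part in translational repression, read 8.75 and 9.13 in null-labelled liver at 24 h against 8.23 and 8.28 at 0 h, and 8.90 and 8.68 in wild type liver at 24 h against 7.79 and 7.90 at 0 h. It rose by 0.82 ± 0.12 averaged over genotypes (adjusted p = 0.00702, limma), and at 0 h the null-labelled arrays stood above the wild type ones with this probe set. Another probe set of Eif4e2 that rose had the reverse order at 0 h, with 7.77 and 7.72 in null-labelled against 7.93 and 7.90 in wild type liver. Eif4e3, the most divergent homologue, read 5.80 and 5.24 in null-labelled liver at 24 h against 6.95 and 6.47 at 0 h, and 5.64 and 5.52 in wild type liver at 24 h against 6.08 and 6.06 at 0 h. It fell in null-labelled liver by 1.19 ± 0.24 (adjusted p = 0.03) and averaged over genotypes by 0.84 ± 0.17 (adjusted p = 0.0168). The wild type difference, -0.49 ± 0.24, did not pass (adjusted p = 0.231), and the 2 responses differed by -0.70 ± 0.34 (adjusted p = 0.617), so no difference between genotypes was shown.

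Of the 4E-BP genes, Eif4ebp2 fell and Eif4ebp1 did not pass. Eif4ebp2 read 8.91 and 9.16 in null-labelled liver at 24 h against 9.62 and 9.54 at 0 h, and 9.04 and 9.09 in wild type liver at 24 h against 9.14 and 9.35 at 0 h. The arrays of the 2 times overlapped across genotypes but not within one, and the averaged difference was -0.36 ± 0.10 (adjusted p = 0.0421, limma). That call held in 1 of the 8 fits without 1 array. Eif4ebp1 read 8.71 and 9.21 in null-labelled liver at 24 h against 9.26 and 9.37 at 0 h, and 9.35 and 8.81 in wild type liver at 24 h against 8.92 and 9.26 at 0 h. The times overlapped in wild type but not in null-labelled liver, and replicates at 24 h were further apart than the group means (averaged difference -0.18 ± 0.18, adjusted p = 0.492). Eif4enif1, which carries eIF4E into the nucleus, read 7.98 and 7.90 in null-labelled liver at 24 h against 7.63 and 7.66 at 0 h, and 7.87 and 7.72 in wild type at 24 h against 7.42 and 7.36 at 0 h. Every array at 24 h was above every array at 0 h, and it rose by 0.35 ± 0.08 (adjusted p = 0.0279). Eif4ebp3 shares its probe set with another gene and is therefore not among the 41.

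Genes that deliver and recharge the initiator tRNA complex were higher. Eif2s2, the beta subunit of eIF2, read 10.66 and 10.80 in null-labelled liver at 24 h against 10.06 and 10.12 at 0 h, and 10.74 and 10.58 in wild type liver at 24 h against 10.14 and 10.25 at 0 h. It rose by 0.55 ± 0.09 averaged over genotypes (adjusted p = 0.00944, limma) without overlap between times. All 5 subunit genes of eIF2B, the exchange factor of eIF2, were higher, but only the gamma and delta subunits rose. Of all genes, 46.8% were higher and 13.8% rose. Eif2b3 (gamma) read 7.32 and 7.77 in null-labelled liver at 24 h against 6.32 and 6.34 at 0 h, and 7.74 and 7.49 in wild type liver at 24 h against 6.87 and 6.60 at 0 h. It rose by 1.05 ± 0.14 (adjusted p = 0.00572), which is 2.07-fold, and passed in each genotype. Eif2b4 (delta) read 8.70 and 9.17 in null-labelled liver at 24 h against 7.85 and 7.76 at 0 h, and 9.12 and 8.68 in wild type liver at 24 h against 8.04 and 8.08 at 0 h, a rise of 0.99 ± 0.15 (adjusted p = 0.0082). The other subunits differed less: Eif2b5 (epsilon, the catalytic subunit) by 0.28 ± 0.09 (adjusted p = 0.0538), Eif2b1 (alpha) by 0.27 ± 0.09 (adjusted p = 0.0591) and Eif2b2 (beta) by 0.10 ± 0.08 (adjusted p = 0.387). The other probe sets of Eif2b2 differed by 0.44 (adjusted p = 0.0819) and 0.34 (adjusted p = 0.0981) in the fit of single probe sets, so its size depends on the probe set, and unequal change between subunits was not tested.

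Of the 4 genes related to eIF1 and eIF1A, which set the fidelity of start codon choice, 3 rose (13.8% of all genes did). Eif1ad, a gene named for its eIF1A-like domain, read 8.34 and 8.75 in null-labelled liver at 24 h against 7.55 and 7.50 at 0 h, and 8.56 and 8.39 in wild type liver at 24 h against 7.53 and 7.66 at 0 h. It rose by 0.95 ± 0.12 (adjusted p = 0.00518, limma) and passed in both genotypes. Eif1ax, the X-linked eIF1A gene, read 9.61 and 9.75 in null-labelled liver at 24 h against 8.97 and 9.05 at 0 h, and 9.62 and 9.43 in wild type liver at 24 h against 9.09 and 9.03 at 0 h, and rose by 0.57 ± 0.09 (adjusted p = 0.00925). Eif1a read 8.98 and 9.68 in null-labelled liver at 24 h against 8.62 and 8.82 at 0 h, and 9.69 and 9.41 in wild type liver at 24 h against 8.54 and 8.50 at 0 h. Its lowest array at 24 h stood only just above the highest at 0 h, and the averaged rise was 0.82 ± 0.18 (adjusted p = 0.0198). The eIF1A genes are near-identical in sequence, so their probe sets may share signal. Eif1b differed by 0.18 ± 0.08 and did not pass (adjusted p = 0.146).

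The 11 measured subunit genes of eIF3, the large scaffold on the small subunit, were all higher in the averaged response, and 3 of them rose. Of all genes, 46.8% were higher and 13.8% rose. The subunit genes differed by 0.02 to 0.54 with a median of 0.19. On the deposited values Eif3a, the lowest of them, stood at -0.02. Eif3m read 8.63 and 9.01 in null-labelled liver at 24 h against 8.10 and 8.24 at 0 h, and 8.88 and 8.87 in wild type liver at 24 h against 8.53 and 8.34 at 0 h, a rise of 0.54 ± 0.12 (adjusted p = 0.021, limma). Eif3d, a subunit that can itself bind the cap of some mRNAs, read 9.43 and 9.71 in null-labelled liver at 24 h against 9.19 and 9.01 at 0 h, and 9.68 and 9.36 in wild type liver at 24 h against 9.04 and 9.18 at 0 h, a rise of 0.44 ± 0.13 (adjusted p = 0.0455). In both genes the arrays at 24 h lay above those at 0 h. Eif3k read 9.10 and 9.19 in null-labelled liver at 24 h against 8.92 and 8.96 at 0 h, and 9.26 and 9.22 in wild type liver at 24 h against 8.87 and 8.86 at 0 h, a rise of 0.29 ± 0.08 (adjusted p = 0.0395). These calls held in 2, 2 and 0 of the 8 fits without 1 array. With the probe sets that stood for the genes, no subunit of eIF3 passed within one genotype, although 9 of the 11 were higher in null-labelled and 11 in wild type liver (47.5% and 47.6% of all genes were). The wild type count depended on the normalisation. On the deposited values Eif3i was lower on average in wild type liver at 24 h, with 10.43 and 10.23 against 10.37 and 10.41 at 0 h. Tested as single probe sets, another one of Eif3e rose in null-labelled liver by 0.69 (adjusted p = 0.0399) and averaged by 0.52 (adjusted p = 0.0202), and another one of Eif3m rose in null-labelled liver by 0.87 (adjusted p = 0.0499).

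Eif6, whose product takes part in the maturation of large subunits and keeps them from pairing early, had the largest rise of the family. It read 9.88 and 10.33 in null-labelled liver at 24 h against 8.45 and 8.36 at 0 h, and 10.79 and 10.11 in wild type liver at 24 h against 8.60 and 8.65 at 0 h. The arrays at 24 h were far above those at 0 h, although replicates at 24 h were further apart than at 0 h. It rose by 1.70 ± 0.26 in null-labelled liver (adjusted p = 0.0177, limma), 1.83 ± 0.26 in wild type (adjusted p = 0.0204) and 1.76 ± 0.18 averaged (adjusted p = 0.00339), or 3.39-fold. Eif5, the GTPase-activating partner of eIF2, read 10.88 and 10.97 in null-labelled liver at 24 h against 10.68 and 10.64 at 0 h, and 11.03 and 11.01 in wild type liver at 24 h against 10.42 and 10.50 at 0 h. It rose by 0.41 ± 0.08 averaged (adjusted p = 0.0145) and by 0.56 ± 0.11 in wild type (adjusted p = 0.0374), while the null-labelled difference of 0.27 ± 0.11 did not pass and the 2 responses differed by -0.29 ± 0.16 (adjusted p = 0.643). Another probe set of Eif5 passed in both genotypes when tested singly by limma. It rose by 0.75 in null-labelled (adjusted p = 0.0322) and 0.74 in wild type liver (adjusted p = 0.0442), and its responses differed by 0.01. The remaining further probe sets of Eif5 passed in neither genotype. Eif2d, a non-canonical factor that can deliver tRNA without eIF2, read 8.63 and 8.51 in null-labelled liver at 24 h against 8.03 and 8.01 at 0 h, and 8.22 and 8.23 in wild type liver at 24 h against 7.64 and 7.87 at 0 h, a rise of 0.51 ± 0.09 (adjusted p = 0.0122). Eif5b, which joins the subunits, differed by 0.08 ± 0.12 and Eif2a, an alternative tRNA carrier, by 0.01 ± 0.08, and neither passed; another probe set of Eif5b fell by 0.81 (adjusted p = 0.0134) in the fit of single probe sets described with the probe sets. Eif5a, which carries the hypusine modification and aids elongation, read 12.02 and 12.03 in null-labelled liver at 24 h against 11.86 and 11.82 at 0 h, and 12.09 and 12.05 in wild type at 24 h against 11.88 and 11.95 at 0 h. Its arrays at 24 h were above those at 0 h by a small margin after normalisation (0.17 ± 0.08, adjusted p = 0.152). On the deposited values the times overlapped across genotypes. There, null-labelled liver was lower at 24 h, with 11.886 and 11.918 against 11.963 and 11.919 at 0 h. Wild type liver was higher, with 12.049 and 12.098 at 24 h against 11.935 and 12.042 at 0 h.

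**Figure D3:**
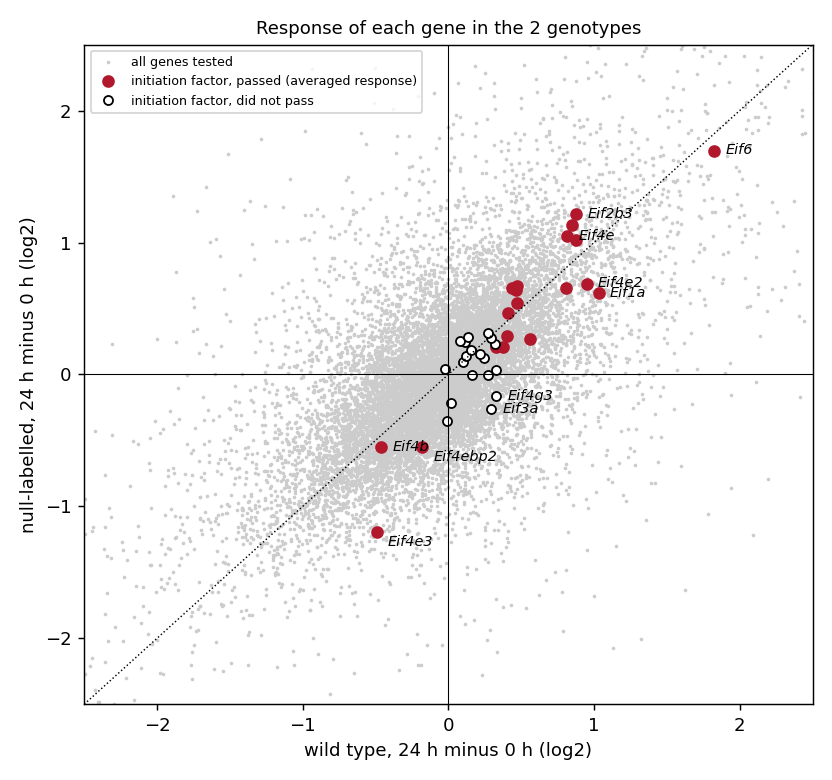
Each point is a gene, placed by its log2 difference between 24 h and 0 h in wild type liver (horizontal) and in null-labelled liver (vertical), with all tested genes in grey, initiation factors that passed in the averaged response in red and the others in white, and the dotted line marking equal responses; genes beyond the axis ends are not drawn. Of the 39 initiation factors, 33 have the same sign in both genotypes (the share over all genes was not counted), and Eif6 lies furthest to the upper right.

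No initiation factor passed in a comparison between genotypes. At 24 h, null-labelled minus wild type, the family's median was -0.03 (range -0.54 to 0.34) and 0 of 39 passed (0.00693% of all genes did), with 3 at an unadjusted p under 0.05 by limma (7.69%, against 11.8% of all genes). At 0 h the median was -0.01 (range -0.41 to 0.64) and 0 passed, as did 0 of all 14423 genes, with 3 at an unadjusted p under 0.05 (against 9.64% of all genes). The difference between the responses, null-labelled minus wild type, had a median of -0.09 (range -0.70 to 0.34), 0 passed, again as in all 14423 genes, and 2 had an unadjusted p under 0.05 (5.13%, against 8.63%). These sizes leave room for differences: the 95% interval of the difference between responses was -0.19 to 0.65 for Eif4e, -1.03 to 0.77 for Eif6 and -0.60 to 0.29 for Eif4a1. The smallest p at 24 h was that of Eif4g3, a homologue of the eIF4G scaffold, with 7.25 and 6.97 in null-labelled against 7.68 and 7.61 in wild type liver (-0.54 ± 0.14, adjusted p = 0.269). At 0 h it read 7.25 and 7.30 in null-labelled against 7.30 and 7.33 in wild type liver, so the null-labelled arrays were below the wild type arrays at both times but at 0 h by a margin under the second decimal. The other probe sets of Eif4g3 were also lower in null-labelled than in wild type liver at 24 h, with differences of -0.69 (unadjusted p = 0.00971), -0.59 and -0.34, and none of them passed. Between times they went apart, and 2 of the 3 passed in the averaged response, with differences of 0.63 (adjusted p = 0.0197) and -1.01 (adjusted p = 0.0325) in the fit of single probe sets. Of the 5 genes that encode eIF4E homologues and binders, all were higher in null-labelled than in wild type liver at 0 h, by 0.22 to 0.64, as were 51.4% of all genes, but none passed (adjusted p = 0.509 for Eif4e3, the smallest of them). This holds for the probe sets that stood for the genes, and others went both ways. Those of Eif4e2 differed by -0.17, 0.10, -0.13 and 0.25, and those of Eif4ebp2 by 0.07, 0.08, -0.49 and -0.335. That of Eif4e3 differed by 0.04 and those of Eif4ebp1 by 0.15 and 0.35.

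Most members are covered by several probe sets, which did not always move together. The 41 genes had 115 probe sets, of which 104 passed the filter. For 16 of the 20 genes that passed in the averaged response another probe set could be tested, 40 in all, in a limma fit of 25517 single probe sets. Of these 40, 31 had the direction of the one that stood for the gene, 17 of them with an adjusted p under 0.05, and 9 had the opposite one. Eif4e, Eif4a1, Eif4b, Eif5, Eif3m, Eif4e2, Eif2s2, Eif4h, Eif4ebp2 and Eif2d each had a further probe set that passed in the same direction. For Eif4ebp2, 2 other probe sets fell further, by 0.71 and 1.19, while the remaining ones, at -0.26 and -0.46, did not pass. For Eif2d, 2 further probe sets rose by 0.51 and 0.53, while another fell by 0.58 (adjusted p = 0.0161). Eif4e2 had 3 probe sets at -0.25, -0.43 and -0.32, none of which passed, beside 1 that rose by 0.83. The second probe set of Eif6 read 4.90 to 5.55 over the 8 arrays and differed by 0.35 (adjusted p = 0.135), so the size of its rise rests on 1 probe set. The other probe set of Eif4e3 differed by -0.28 (adjusted p = 0.217), that of Eif1ad by 0.39 (adjusted p = 0.167), that of Eif1a by 0.68 (adjusted p = 0.0621), that of Eif3d by 0.23 (adjusted p = 0.515) and those of Eif1ax by 0.79 (adjusted p = 0.115) and -0.25 (adjusted p = 0.126), so these calls too rest on 1 probe set each. For Eif2b3, Eif2b4, Eif3k and Eif4enif1 no other probe set was measured above the filter. Eif3d, Eif3k, Eif4h and Eif4ebp2 had an adjusted p of 0.05 or more in this fit, which holds more tests. Of the 19 genes that did not pass, 13 had another probe set, 25 in all, and 5 of these passed, namely 1 each of Eif3e, Eif4g2 and Eif5b and 2 of Eif4g3.

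**Figure D4:**
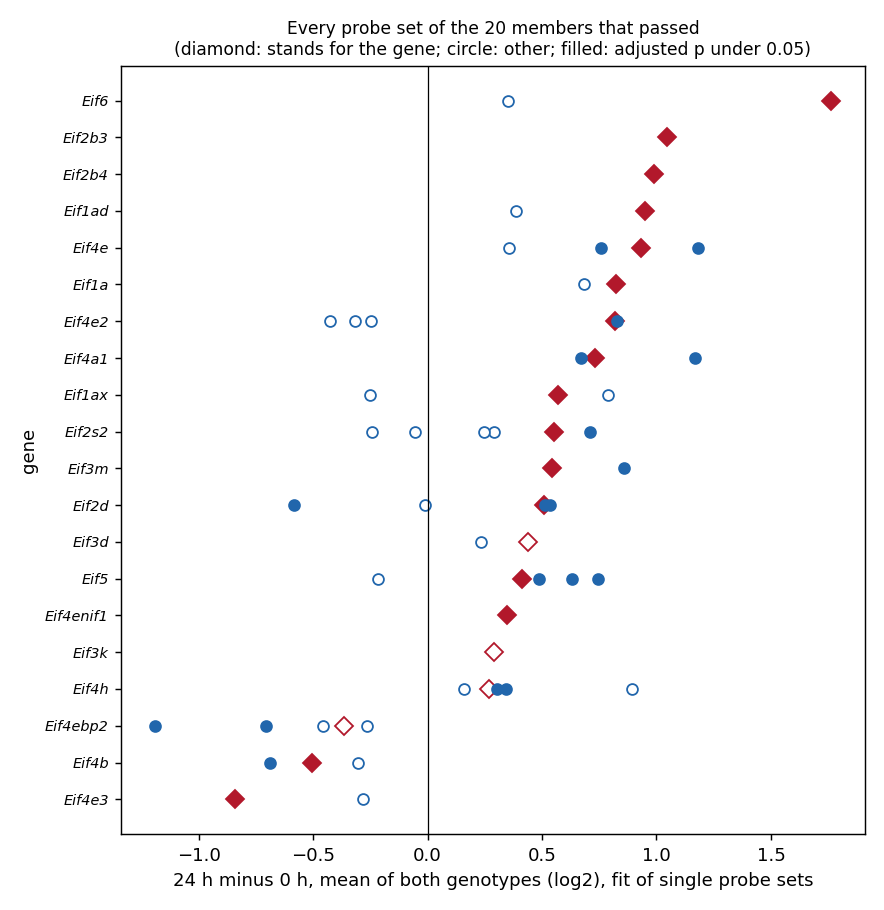
Each symbol is a probe set of 1 of the 20 genes that passed (rows), placed by its log2 difference between 24 h and 0 h averaged over genotypes; diamonds stand for the gene, circles are its other probe sets, and filled symbols have an adjusted p under 0.05 in the fit of single probe sets. Of the 40 circles 31 lie on the same side of 0 as the diamond of their gene.

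Other genes of translation were read from lists. Of 13 genes for poly(A)-binding proteins, helicases and subunit recycling, 3 passed in the averaged response (23.1%, against 28.8% of all genes), each higher, with a median of 0.23. They were Bzw1, an eIF5 mimic (0.98 ± 0.10, adjusted p = 0.00349, limma), Denr, a reinitiation factor (0.57), and Abce1, which splits ribosomes (0.52). Of 13 genes listed with the elongation and termination factors 5 passed, each higher (38.5%, against 13.8% of all genes that rose), with a median of 0.26. Among them were Gspt1, the release factor eRF3, by 0.50 and Eef1b2 by 0.44. Eef1e1, which despite its symbol is not itself an elongation factor, rose by 0.84, and Dhps, a hypusine enzyme, is on this list too. Of 21 cytosolic aminoacyl-tRNA synthetase genes 9 rose and 2 fell (42.9% and 9.52%, against 13.8% and 15.1% of all genes; median 0.33). Aimp2, a scaffold of the synthetase complex, rose by 0.88, Gars by 0.69 and Kars by 0.49, while Tars and Eprs fell by 0.49 and 0.44. Mitochondrial translation factors had a median of -0.01, and 1 of 8 passed (12.5%, against 28.8% of all genes), namely Mtrf1l, which rose by 0.46.

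Genes that regulate initiation had calls in both directions. Among 8 genes of hypusine and polyamine synthesis 3 rose and 1 fell (37.5% and 12.5%, against 13.8% and 15.1%). Odc1, the first enzyme of polyamine synthesis, rose by 1.15 ± 0.12 (adjusted p = 0.00325, limma), the spermidine synthase Srm by 1.30 ± 0.13 and Dhps, which makes hypusine on eIF5A, by 0.47 (it is on the elongation list too), while Oaz1, the antizyme that inhibits Odc1, fell by 0.38. Among 21 genes around mTOR and the cap, 2 rose and 4 fell, so that 28.6% passed, near the 28.8% of all genes. Pdcd4, an inhibitor of eIF4A, fell by 1.29 ± 0.10 (adjusted p = 0.00218), the mTOR inhibitors Tsc1, Tsc2 and Deptor by 0.79, 0.67 and 1.90, and Rps6 and Ppp2ca rose by 0.45 and 0.40. Of these 21 genes 5 were higher in null-labelled liver at 24 h than at 0 h (median -0.29) and 13 in wild type liver (median 0.14), and the difference between the responses was above 0 for 2 of 21 (median -0.29, against 0 over all genes), but none of the 21 passed. Of the 4 eIF2 kinases, Eif2ak1 (HRI, the haem-regulated kinase) and Eif2ak2 (PKR) fell by 0.64 and 0.43 (15.1% of all genes fell). Eif2ak3 (PERK, the kinase of the endoplasmic reticulum) differed by -0.82 in null-labelled liver (adjusted p = 0.0711) and 0.77 in wild type (adjusted p = 0.0971), and the difference between these, -1.59 ± 0.34, did not pass (adjusted p = 0.517, unadjusted p = 0.00346). At 0 h it was 1.03 higher in null-labelled than in wild type liver (adjusted p = 0.386). Of the same list, the eIF2 gamma gene Eif2s3x rose by 0.36. Among 15 genes of the integrated stress response, the programme set off when eIF2 is phosphorylated, 3 rose and 1 fell, so that 26.7% passed, near the 28.8% of all genes. At 0 h, 13 of the 15 were higher in null-labelled than in wild type liver (51.4% of all genes were) and none passed; the smallest p was that of Ddit3 (CHOP), 1.12 higher (adjusted p = 0.277, unadjusted p = 0.000749). In the averaged response the serine synthesis gene Psat1 rose by 2.55, Asns by 1.62 and Nupr1 by 1.04, and Chac1 fell by 1.45.

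The 4 genes outside the family whose 8 values followed the family's mean most closely were Dbndd2, Ccser2, Pa2g4 and Ebna1bp2 (Pearson's r of 0.997, 0.993, 0.993 and 0.993 over 8 arrays, a description that shares arrays and scaling). Pa2g4 rose by 0.66 and the nucleolar Ebna1bp2 by 0.91 in the averaged response. Among the members, Eif4b ran most against that mean (r = -0.93).

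Markers of cell types and of RNA quality also moved between times, and their part in the results was not tested. Fewer cells of a type and less RNA per cell cannot be told apart in these tissue pools. Of 7 hepatocyte markers 2 fell in the averaged response (28.6%, against 15.1% of all genes), Cps1 by 0.40 and Hnf4a by 0.34. Their summed linear signal was 51710 to 52275 in null-labelled liver at 24 h against 54313 to 55404 at 0 h, and 53560 to 55224 in wild type at 24 h against 52082 to 56588 at 0 h. Of 12 macrophage and leucocyte markers Cd68, Cd14, S100a8 and S100a9 rose (33.3%, against 13.8% of all genes) and Adgre1, Clec4f, Csf1r and Cd79a fell (33.3%, against 15.1%). The sums were 2898 to 2948 in null-labelled liver at 24 h against 2361 to 2397 at 0 h and 2458 to 2616 in wild type at 24 h against 2382 to 2657 at 0 h. Of 8 stellate cell and fibroblast markers Col3a1, Reln and Des fell (37.5%, against 15.1% of all genes), and the sums were 1734 to 1816 in null-labelled liver at 24 h against 1806 to 2293 at 0 h and 1689 to 1933 in wild type at 24 h against 2041 to 2322 at 0 h. The endothelial marker Pecam1, 1 of 7, and the biliary marker Sox9, 1 of 4, rose, and the red cell gene Alas2 fell by 1.13. Endothelial sums were 1261 to 1415 in null-labelled liver at 24 h against 1068 to 1342 at 0 h and 1208 to 1398 in wild type at 24 h against 1545 to 1648 at 0 h. Biliary sums were 122 to 156 in null-labelled liver at 24 h against 63.2 to 111 at 0 h and 159 to 263 in wild type at 24 h against 119 to 125 at 0 h. The T cell, red cell and pancreas genes Cd3e, Hba-a1 and Cpa1 did not pass the filter. The log2 signal ratio of 3' over 5' actin probe sets was 1.27 ± 0.07 in null-labelled liver at 24 h against 1.57 ± 0.03 at 0 h, and 0.97 ± 0.09 in wild type liver at 24 h against 1.22 ± 0.25 at 0 h (SD, n = 2 each). For Gapdh it was 0.16 ± 0.12 against 0.52 ± 0.02 and 0.07 ± 0.10 against 0.23 ± 0.07 in the same groups.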

How the data were processed

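Total liver RNA was labelled and hybridised to Affymetrix arrays, per the labels' protocols. The deposited values are log2 signals, as read from the values, since 2 to the power of a low value falls on steps of 0.01; how the signals were summarised is not stated there. After removal of 64 controls from 45101 probe sets, values were quantile normalised because the 25th, 50th and 75th percentiles of the arrays differed by 0.62, 0.38 and 0.17. Gene symbols came from the platform annotation, which gave 1 symbol to 34945 probe sets, several to 932 and none to 9160. A gene was tested if its probe set lay above the 40th percentile of the array (3.60) in at least 2 arrays. The 8 arrays entered 1 linear model of 4 group means (limma 3.58.1, R 4.3.3; 4 residual and 2.02 prior degrees of freedom) with 6 contrasts, two-sided. Precision is limited by having 8 arrays. The procedure was tested on simulated data. Replicate arrays correlated at 0.951 to 0.959.

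The members, lists and tests were chosen with earlier results of these data known. All members were accounted for; by rule, array values are given for those that passed in any comparison (at most 20) and for the eIF4E, 4E-BP, eIF4A, Eif2b3, Eif3a, Eif5a and Eif6 genes, and for Eif4g3 after its values were seen. Genes named from lists are the 3 with the smallest p among those that passed, plus some further members that passed, chosen after their values were seen. Alternatives were the deposited values, median centring, 16 added on the linear scale, no filter, a filter at the 60th percentile, the mean of a gene's probe sets, single probe sets, array weights, a replicate block, a trended and robust prior, fits of 2 groups and leaving out each array.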

Additional observations from a re-analysis of the deposited data

Results flagged for a closer look

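Eif3a, the largest subunit gene of eIF3, differed between times with opposite signs in the genotypes, although neither difference passed. It read 9.70 and 9.38 in null-labelled liver at 24 h against 9.87 and 9.73 at 0 h (-0.26 ± 0.16, adjusted p = 0.301, limma), and 10.01 and 9.78 in wild type liver at 24 h against 9.57 and 9.62 at 0 h (0.30 ± 0.16, adjusted p = 0.274). Both null-labelled arrays at 24 h were below and both wild type arrays were above their own arrays at 0 h. The responses, null-labelled minus wild type, differed by -0.56 ± 0.23, which did not pass (adjusted p = 0.577, unadjusted p = 0.0493). In the fit of single probe sets, 1 of the other 3 probe sets of Eif3a had the same signs (-0.08 in null-labelled and 0.15 in wild type liver), while the other two were higher in both genotypes, by 0.51 and 0.47 in null-labelled and 0.44 and 0.27 in wild type liver, with differences between responses of 0.06 and 0.20.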

How the results depend on the processing

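The number of members that passed in the averaged response, 20, lay between 15 and 25 under every alternative that kept all arrays, and between 10 and 17 when 1 array was left out. In null-labelled liver the 12 became 5 with no filter, 5 with the replicate block and 0 in a fit of its 2 groups alone, and ranged from 0 to 9 without 1 array. In wild type liver the 7 became 1 with median centring, 12 with 16 added on the linear scale, 3 with no filter, 15 with the filter at the 60th percentile, 4 with the mean of all probe sets, 16 with the trended and robust prior, 0 with the replicate block and 0 with 2 groups, and ranged from 0 to 8 without 1 array. Leaving out an array leaves 1 in its group, assumed to vary like the others. Between genotypes, 0 members passed under each alternative run. Median centring moved the median of all genes to 0.12 in the null-labelled response and 0.14 between genotypes at 24 h, and the members' medians to 0.37 and 0.13. Replicate numbers did not pair the arrays (correlations of deviations between groups -0.20 to 0.05); the block left 16 members in the averaged response. Between the genotypes, deviations of arrays with the same number were weakly opposite, with correlations of -0.20 at 24 h and -0.12 at 0 h. A crossed replicate block was therefore added after the data were seen. It gave 10, 6 and 16 members in the null-labelled, wild type and averaged responses.

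Among the named differences that were rechecked, opposite signs came from single probe sets, except for Eif3a. For Eif4e2 they were -0.25, -0.61 and -0.30 in null-labelled liver, -0.24, -0.25 and -0.33 in wild type and -0.25, -0.43 and -0.32 averaged. For Eif2d they were -0.87 and -0.24 in null-labelled liver and -0.58 and -0.0119 averaged, for Eif1ax -0.27 and -0.25, for Eif2s2 -0.42 in null-labelled liver and -0.0543 and -0.24 averaged, and for Eif5 -0.20 in wild type and -0.22 averaged. Eif3a, at 0.02 averaged, stood at -0.0212 on the deposited values and between -0.0635 and 0.10 without 1 array. The cause was not tested.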
